A study of Mus musculus with 8 samples.

Results

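Effector CD8 T cell transcription factors are the DNA-binding proteins, and their inhibitors, that direct an activated CD8+ T cell towards killing, cytokine secretion and terminal or exhausted fates. The 10 genes described here, *Tbx21*, *Eomes*, *Prdm1*, *Id2*, *Zeb2*, *Irf4*, *Irf8*, *Batf*, *Runx3* and *Tox*, were chosen by symbol and matched to 10 of the 55536 Ensembl genes in each count table. All libraries came from CD8+ T cells of C57BL/6 OT-1 mice on a Rag-1KO background, aged 5 to 12 weeks, whose only T cell receptor is a transgene specific for SIINFEKL, an ovalbumin peptide. Cells of the lymph nodes were stimulated with this peptide at 100 nM for 2 days, washed, and expanded for 2 days in 20 ng/mL recombinant human IL-2. During the IL-2 phase, 4 cultures received 10 µM GC7, which blocks deoxyhypusine synthase and so the conversion of eIF5a to its hypusinated, active form. The other 4 cultures received the 10 mM acetic acid vehicle and are called mock-treated. All cells thus carried the same receptor and had the same peptide and cytokine, and total RNA was taken from a fixed number of cells per library. GC7 has effects on cells besides those on eIF5a, so the comparison is of a drug with its vehicle and not of eIF5a alone.

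These factors act as a network. Signals from the T cell receptor induce IRF4 and BATF, which bind DNA together at composite sites and open chromatin for later factors. RUNX3 silences the CD4 programme and favours the cytotoxic programme, and the T-box proteins T-bet (encoded by *Tbx21*) and EOMES drive genes for granzymes, interferon gamma and the IL-2 receptor beta chain. BLIMP-1 (encoded by *Prdm1*), ID2 and ZEB2 favour short-lived effector cells over memory cells, while TOX is best known in CD8+ T cells that are exposed to antigen for long periods, where it sustains exhausted cells.

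Promoter sequence is shown for *Prdm1* and *Runx3*, the members with the largest decreases in GC7-treated cells. Windows of 250 bases upstream of RefSeq start sites (GRCm38.p6) were searched on both strands for AP-1 (TGANTCA), ISRE (GAAANNGAA), E-box (CACCTG), Runx (TGTGGT) and T-box (AGGTGTGA) motifs. RefSeq windows were at hand for 9 members, with 14 windows in all. The *Prdm1* window is chr10:44458749-44458998 on the minus strand. It lies inside the annotated gene, chr10:44437177-44528501, so its RefSeq start is not the outermost start of the gene. The *Runx3* sequence is chr4:135120448-135120644 on the plus strand, upstream of the distal start, after removal of 53 bases that lie in an annotated exon. Both are written 5′ to 3′ along the gene, with motif matches in capitals.
Prdm1: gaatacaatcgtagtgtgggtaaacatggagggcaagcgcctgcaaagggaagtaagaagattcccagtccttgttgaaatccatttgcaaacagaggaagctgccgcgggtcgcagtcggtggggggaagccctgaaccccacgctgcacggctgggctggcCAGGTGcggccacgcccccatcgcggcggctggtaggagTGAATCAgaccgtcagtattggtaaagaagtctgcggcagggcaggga
Runx3: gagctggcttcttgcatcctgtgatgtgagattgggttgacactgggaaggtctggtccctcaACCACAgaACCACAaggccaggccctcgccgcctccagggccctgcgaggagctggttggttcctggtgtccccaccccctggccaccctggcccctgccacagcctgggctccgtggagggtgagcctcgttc
The *Prdm1* window held an AP-1 match that began 48 bases before this internal RefSeq start, and an E-box match that began 87 bases before it. In *Runx3*, Runx matches began 134 and 126 bases before the distal start, so that they stand in a closely spaced pair. Matches were counted in the full windows, bases of annotated exons included. An AP-1 match was present in 2 of the 14 windows, in *Prdm1* and *Zeb2*, and in 6.75% of the 32851 windows of all genes. In *Zeb2* the matches lie in bases of an annotated exon. A Runx match was present in 2 windows, in *Runx3* and *Batf*, against 14% of all windows. E-box matches were found in 4 of the 14 windows, in *Irf8*, *Prdm1*, *Runx3* and *Tbx21*, against 17.2% of all windows. The *Runx3* E-box match lies in the removed exon bases and is not printed. The ISRE letters were in 1 window, that of *Eomes*, against 7.13%, and the T-box letters in 0, against 1.12%. No motif searched overlaps another in the printed stretches, and a match only describes these letters.

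The libraries held between 17528776 and 25284730 counts. Levels are given in CPM, a gene's count scaled to a common library total, after correction for composition with TMM factors. Mock replicate 2 and GC7 replicate 3 stood apart, with mean correlations of log2(CPM + 1) across genes with the rest of their group of 0.9881 and 0.9914, against 0.9936 to 0.9952 for the other 6 libraries. All 10 CD8 T cell markers were above 3 CPM, with a summed level of 5179 to 6103 CPM in mock-treated and 4273 to 4646 CPM in GC7-treated libraries. Of the dendritic cell markers, 5 of 11 passed 3 CPM in some library, and their summed level was 141 to 187.9 CPM in mock-treated and 57.72 to 66.18 CPM in GC7-treated libraries. *H2-Ab1*, an MHC class II chain, made up most of that sum, while *Siglech* and *Clec9a* were at 0 in every library. B cell and plasma cell markers summed to 15.05 to 17.8 CPM and 17.11 to 23.65 CPM, with *Ms4a1* and *Pax5* at 0. Macrophage and monocyte markers summed to 15.95 to 20.72 CPM and 11.05 to 14.33 CPM, with *C1qa* and *C1qb* at 0. NK cell markers summed to at most 6.428 CPM and granulocyte and mast cell markers to at most 1.808 CPM in any library. Of the CD4 T cell markers, *Zbtb7b* alone passed 3 CPM, and the list summed to 93.18 to 97.49 CPM in mock-treated and 76.32 to 85.31 CPM in GC7-treated libraries.

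With GC7, *Tox* rose and *Prdm1*, *Runx3*, *Id2* and *Batf* fell, whereas *Irf4*, *Irf8* and *Tbx21* were not past the test. *Eomes* and *Zeb2* were below the filter on low counts, and *Zeb2* was higher in GC7-treated cells when it was fitted without that filter. The filter, more than 3 CPM by library totals in at least 4 libraries, kept 8 of the 10 members and 11189 genes in all. Changes were tested with the edgeR quasi-likelihood test and adjusted over all tested genes, and a gene was called at a false discovery rate (FDR) below 0.01. At that threshold 1 of the 8 members rose and 4 fell, against 23.0% of all tested genes that rose and 23.5% that fell. By more than 2-fold, 1 member rose and 1 fell, where 3.17% of all tested genes rose and 5.31% fell by as much. The median log2 fold change of the 8 members was -0.31, and that of all tested genes was 0.02. Scaling by library totals instead of TMM factors moved the median of all genes to 0.11, and 3346 genes were then higher and 2058 lower, against 2579 and 2635 with TMM factors. The RNA is that of whole cultures, so that fewer cells with a transcript and less transcript per cell cannot be told apart. CPM values are relative to each library, and a change in the total mRNA of a cell was not measured.

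**Figure D1:**
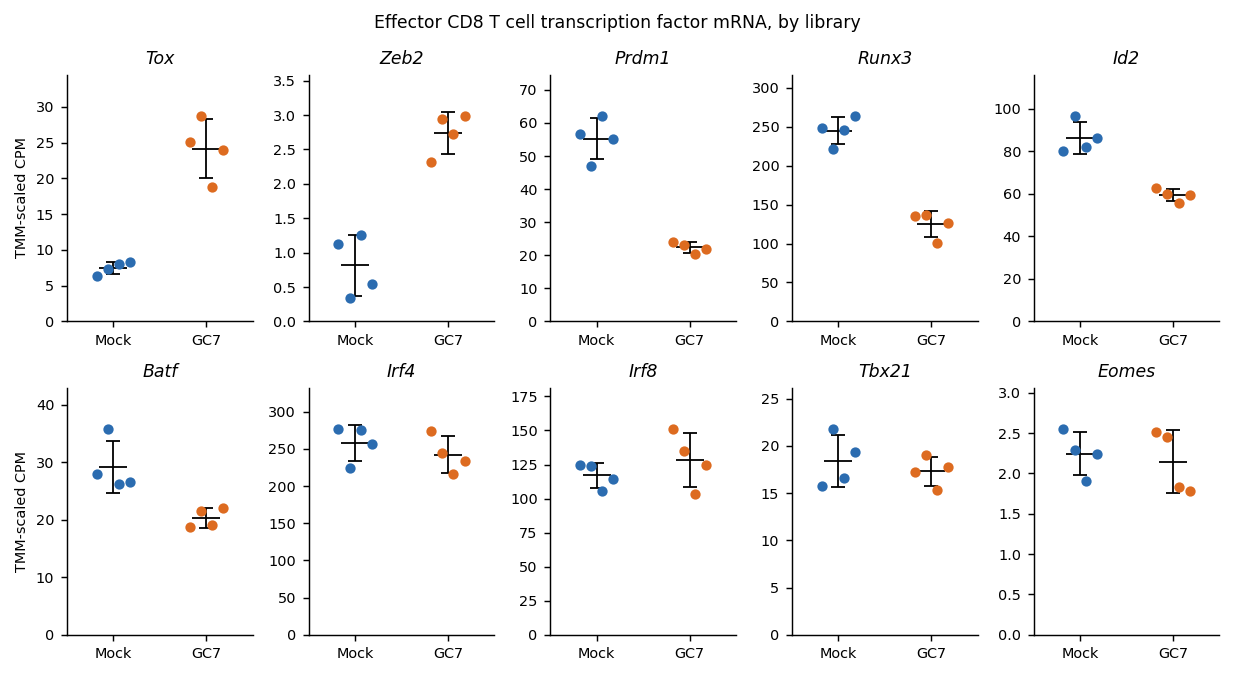
TMM-scaled CPM of each of the 10 mRNAs, with 4 mock-treated libraries in blue and 4 GC7-treated libraries in orange, a bar at the mean and error bars of 1 SD. The groups do not overlap for *Tox*, *Zeb2*, *Prdm1*, *Runx3*, *Id2* and *Batf*, and they overlap for *Irf4*, *Irf8*, *Tbx21* and *Eomes*.

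*Tox* encodes an HMG-box protein that remodels chromatin in chronically stimulated T cells (chr4:6686353-6991557, minus strand, GRCm38). Its level was 6.32, 7.27, 8.02 and 8.27 CPM in the 4 mock-treated libraries and 25.13, 28.75, 18.76 and 23.93 CPM in the GC7-treated libraries. The lowest GC7-treated library was above the highest mock-treated library. The log2 fold change was 1.69 ± 0.13 (SE, n = 4 per group), or 3.23-fold, with an edgeR FDR of 4.8e-07. Groups that did not overlap, with GC7 higher, were found for 28.1% of all tested genes. Across all other fits the log2 fold change of *Tox* lay between 1.599 and 1.800.

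*Prdm1* encodes BLIMP-1, a zinc finger repressor of the memory programme (chr10:44437177-44528501, minus strand). The 4 mock-treated libraries held 56.61, 47.02, 62.21 and 55.23 CPM, and the GC7-treated libraries 24.16, 23.09, 20.37 and 21.98 CPM. Every GC7-treated library was below every mock-treated one, a separation that held with GC7 lower for 27.5% of all tested genes. *Prdm1* fell by 1.30 on the log2 scale (SE 0.0913, FDR = 1.8e-07 by edgeR), and it was the single member past a 2-fold decrease.

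*Id2* encodes an inhibitor that pairs with E proteins such as that encoded by *Tcf3* and keeps them off DNA (chr12:25093799-25097140, minus strand). Levels were 80.42, 96.8, 82.1 and 86.08 CPM in mock-treated and 62.8, 60.17, 55.95 and 59.29 CPM in GC7-treated libraries, with no overlap. *Id2* fell by 0.54 on the log2 scale (SE 0.0713, edgeR FDR = 4.3e-05), a 1.45-fold change. A near-identical copy, *Gm6175*, had 0 counts in all libraries.

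*Zeb2* encodes an E-box repressor that acts downstream of T-bet in terminal effector cells (chr2:44983632-45117395, minus strand). The counts were 22, 8, 27 and 11 in the mock-treated libraries and 48, 65, 49 and 72 in the GC7-treated libraries. Expressed as CPM, these were 1.122, 0.338, 1.252 and 0.548 against 2.324, 2.943, 2.72 and 2.991, so all GC7-treated libraries were higher at a low level. *Zeb2* passed 3 CPM by library totals in 2 libraries and so had no value in the filtered fit. In an edgeR fit with the filterByExpr filter, which kept 14517 genes, its log2 fold change was 1.76 ± 0.30 (SE) with an FDR of 2.5e-04. In that fit 4.17% of genes rose by more than 2-fold at the same FDR. *Zeb2os*, which runs opposite to *Zeb2*, had at most 2 counts in any library. The mock-treated libraries varied more, with a coefficient of variation of 54.1% against 11.1% in the GC7-treated libraries. In fits without a filter on low counts, leaving out any one of the 8 libraries gave log2 fold changes from 1.49 to 2.06.

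*Runx3* encodes a Runt-domain protein of the CD8 lineage (chr4:135120652-135177990, plus strand). It had 247.8, 221.3, 245.8 and 264 CPM in mock-treated libraries against 135, 136.7, 101.2 and 126.7 CPM in GC7-treated libraries. GC7 replicate 3 was lowest and the groups lay far apart. The fall was 0.97 on the log2 scale, since the log2 fold change was -0.97 (95% interval -1.17 to -0.77, edgeR FDR = 3.0e-06), and the fold of 1.96 was just inside the 2-fold limit. Without Mock replicate 2, GC7 replicate 1 or GC7 replicate 2 the decrease was more than 2-fold, at -1.019, -1.005 and -1.014 on the log2 scale, and the members lower by more than 2-fold were then 2. *Gm16224*, an antisense transcript inside *Runx3*, shares no exon bases with it.

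*Batf* encodes a basic leucine zipper protein of the AP-1 family (chr12:85686669-85709087, plus strand). Mock-treated libraries had 27.95, 35.78, 26.24 and 26.52 CPM, and GC7-treated libraries 18.74, 21.5, 19.04 and 22.06 CPM. The groups were separate, with Mock replicate 2 the highest of all. *Batf* fell by 0.52 on the log2 scale (SE 0.107, edgeR FDR = 0.00127).

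*Irf4*, which encodes the factor that partners BATF and whose level follows the strength of receptor signals, lies at chr13:30749226-30766976 on the plus strand. It had 276.7, 224.5, 275.4 and 257.1 CPM in mock-treated and 274.6, 244.2, 216.1 and 233 CPM in GC7-treated libraries. The groups overlapped over most of their range. Its log2 fold change was -0.09 (95% interval -0.28 to 0.10, edgeR FDR = 0.369), an interval that leaves no room for a decrease of the size seen for *Runx3*.

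*Irf8* encodes a related factor that is shared with dendritic and B cells and is induced in effector CD8+ T cells (chr8:120736358-120756694, plus strand). Its level was 125, 123.8, 105.5 and 114.4 CPM in mock-treated and 151.1, 134.9, 103.2 and 124.3 CPM in GC7-treated libraries. GC7 replicate 3 was the lowest of all 8 and GC7 replicate 1 the highest. The log2 fold change was 0.13 (95% interval -0.09 to 0.36, edgeR FDR = 0.288). Without both libraries that stood apart, an alternative chosen after the data were seen, it was 0.25 with an edgeR FDR of 0.00477, past the threshold. The summed dendritic cell markers given above were lower with GC7, mostly through *H2-Ab1*. Of those above 3 CPM in some library, *H2-Ab1* and *Xcr1* were lower, and *Cd74*, *Zbtb46* and *H2-Eb1* were higher. The part of such cells in the value of *Irf8* was not tested.

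*Tbx21* encodes T-bet (chr11:97098071-97115331, minus strand). Its 15.76, 21.78, 16.6 and 19.34 CPM in mock-treated libraries overlapped the 17.19, 19.01, 15.32 and 17.74 CPM in GC7-treated libraries, and the highest and the lowest value of all 8 came from Mock replicate 2 and GC7 replicate 3. The log2 fold change was -0.09 (95% interval -0.33 to 0.15, edgeR FDR = 0.527), and it was 0.01 when libraries were scaled by their totals.

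*Eomes* encodes the second T-box factor of these cells (chr9:118478212-118486132, plus strand). Its counts were 50, 54, 41 and 45 in mock-treated and 52, 54, 33 and 43 in GC7-treated libraries, and no library reached 3 CPM. The levels overlapped, at 2.24 ± 0.27 against 2.14 ± 0.39 CPM (SD, n = 4 per group). With the filterByExpr filter the log2 fold change was -0.07 ± 0.19 (SE, edgeR FDR = 0.791). Without a filter on low counts it was -0.06, and its sign changed with scaling by library totals, when it was 0.03. The antisense transcript *Gm33460* shares 118 exon bases with *Eomes* and had 4 to 21 counts. Whether reads were counted by strand is not given in the sources used here, so some reads of either transcript may be counted with the other.

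**Figure D2:**
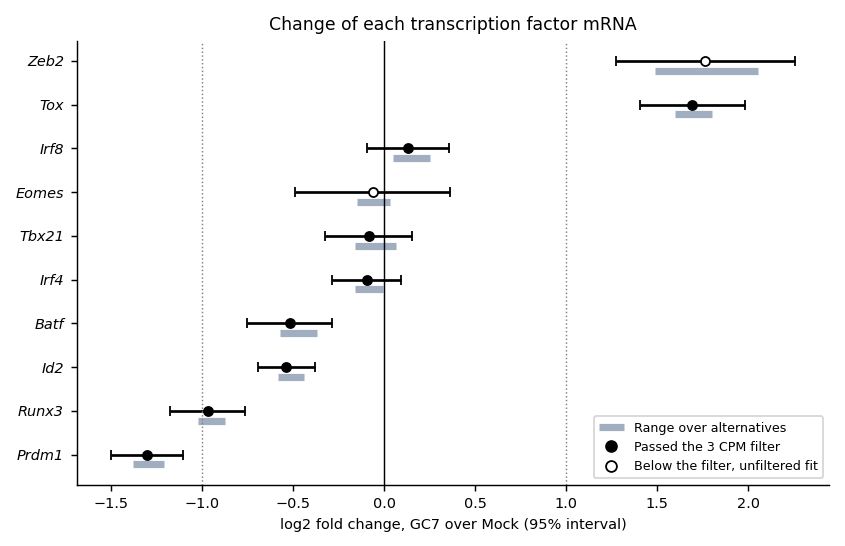
The log2 fold change of each mRNA, GC7-treated over mock-treated, with its 95% interval (black), and the range over all alternative fits (grey bars). Dotted lines mark 2-fold changes and open circles mark *Zeb2* and *Eomes*, which were below the 3 CPM filter. The intervals of *Tox*, *Zeb2* and *Prdm1* lie beyond the 2-fold lines and those of *Irf4*, *Irf8*, *Tbx21* and *Eomes* cross 0. For *Zeb2* and *Eomes* the intervals come from the fit with no filter, whose degrees of freedom had no bound.

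Per kilobase of annotated exon, with all exons of a gene merged, the 10 mRNAs spanned more than 3 orders of magnitude in mock-treated cells. That span rests on *Zeb2*, with 19.94 kb of merged exon and 8 to 27 counts in these libraries. The order of mean level was *Irf4*, *Runx3*, *Id2*, *Batf*, *Irf8*, *Prdm1*, *Tbx21*, *Tox*, *Eomes* and *Zeb2*. In CPM per kilobase, *Irf4* had 52.7 ± 5.0 and *Runx3* 48.9 ± 3.5 (SD, n = 4), and their ranges overlapped. *Prdm1*, at 9.906 ± 1.124, and *Tbx21*, at 7.38 ± 1.101, also overlapped, and all other neighbours in the order were separate. *Tox* stood at 0.98 ± 0.12, *Eomes* at 0.54 ± 0.06 and *Zeb2* at 0.041 ± 0.022 CPM per kilobase.

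In GC7-treated cells the order was *Irf4*, *Runx3*, *Id2*, *Irf8*, *Batf*, *Tbx21*, *Prdm1*, *Tox*, *Eomes* and *Zeb2*. *Irf4* stood alone at the top with 49.4 ± 5.0 CPM per kilobase, while *Runx3*, at 24.97 ± 3.28, came down to overlap *Id2*, at 24.4 ± 1.2. *Irf8* and *Batf* overlapped, at 18.2 ± 2.8 and 14.5 ± 1.2 CPM per kilobase. *Prdm1*, at 4.01 ± 0.29, dropped below *Tbx21*, at 6.96 ± 0.62, and overlapped *Tox*, at 3.17 ± 0.54 CPM per kilobase. *Eomes* and *Zeb2* were again the lowest, at 0.52 ± 0.09 and 0.14 ± 0.02.

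**Figure D3:**
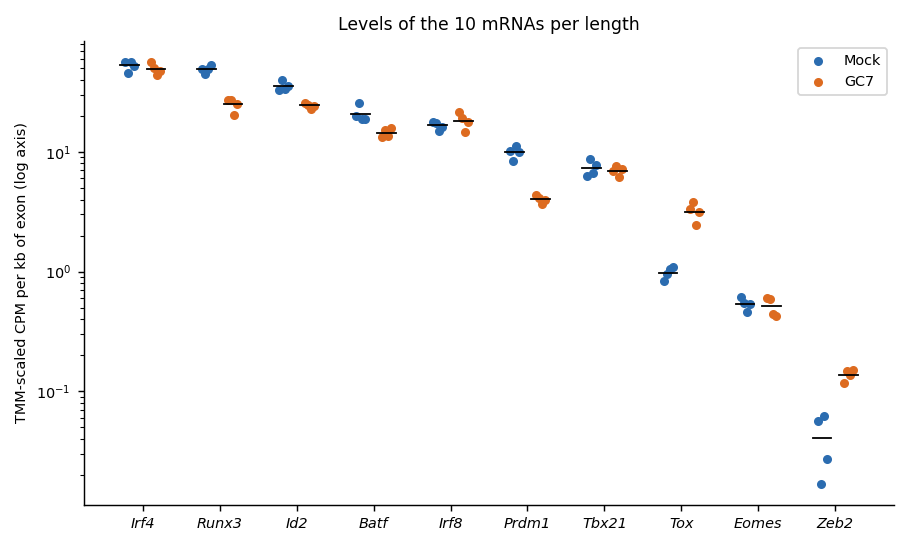
TMM-scaled CPM per kilobase of exon (log axis) for each library, mock-treated in blue and GC7-treated in orange, with a bar at each mean. The range of *Prdm1* overlaps that of *Tbx21* in mock-treated libraries and that of *Tox* in GC7-treated libraries, and its mean is the higher in both cases.

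Ratios of a member to its paralog or antagonist within each library are free of the scaling between libraries. They are not independent of the changes of single genes, since a change of either gene alone can separate the groups. A total of 8 ratios were tested with a two-sided exact permutation test, whose smallest p for 4 against 4 libraries is 0.0286, and adjusted over the 8. The ratio of *Prdm1* to *Bcl6*, the repressor that opposes it, had log2 values of 5.91, 4.78, 5.72 and 5.83 in mock-treated and 3.74, 4.21, 4.39 and 3.74 in GC7-treated libraries. The groups were separate and differed by -1.54 (exact permutation p = 0.0286, adjusted p = 0.0381). *Bcl6* itself was at 1.18 ± 0.36 and 1.39 ± 0.38 CPM (SD, n = 4), below the filter.

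The ratio of *Id2* to *Id3*, the family member linked to memory precursors, differed by -0.36 in log2 units, and that of *Id2* to *Tcf3* by -0.28. In both, every GC7-treated library was below every mock-treated one (exact permutation p = 0.0286, adjusted p = 0.0381). *Id3* was at 17.5 ± 1.8 and 15.5 ± 1.8 CPM and did not pass the test (edgeR FDR = 0.175). *Tcf3* fell by 0.25 on the log2 scale (edgeR FDR = 0.00359), less than *Id2*.

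The ratio of *Batf* to *Batf3*, a close relative that also dimerises with JUN proteins, differed by -0.67, with separate groups (exact permutation p = 0.0286, adjusted p = 0.0381). *Batf3* had 37.7 ± 1.3 CPM in mock-treated and 42.1 ± 2.9 CPM in GC7-treated libraries. The ratio of *Zeb2* to *Zeb1* differed by 1.58 and that of *Runx3* to *Runx1* by 0.46, again with separate groups (exact permutation p = 0.0286, adjusted p = 0.0381 for each). *Runx1* fell by 1.40 on the log2 scale (edgeR FDR = 9.9e-06), so that *Runx3* fell less than *Runx1*.

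The ratio of *Irf4* to *Irf8* differed by -0.22, with overlapping groups (exact permutation p = 0.114, adjusted p = 0.131). That of *Tbx21* to *Eomes* had a mean log2 value of 3.01 in both groups, with SDs of 0.28 and 0.22 (n = 4 each) and an exact permutation p of 0.971. *Tox2* had at most 2 counts in any library, and no ratio of *Tox* to *Tox2* was made.

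**Figure D4:**
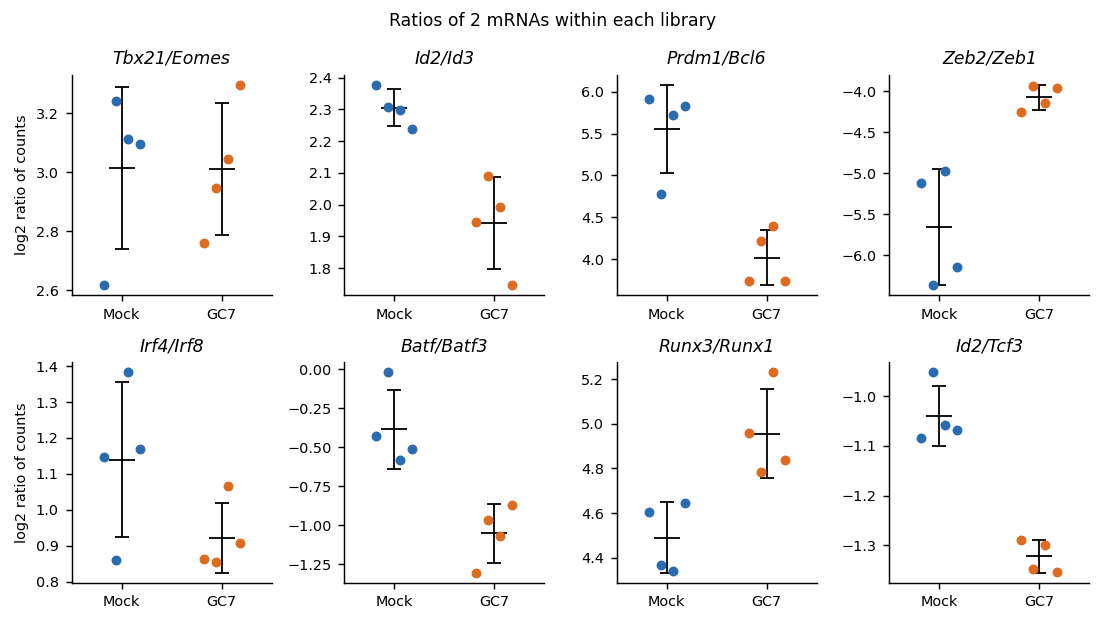
The log2 ratio of 2 mRNAs within each library, mock-treated in blue and GC7-treated in orange, with the mean and error bars of 1 SD; each panel has its own axis, which does not start at 0. The groups are separate in 6 of the 8 ratios and overlap for *Irf4*/Irf8 and *Tbx21*/Eomes. Single genes had separate groups in 28.1% (GC7 higher) and 27.5% (GC7 lower) of all tested genes. No such share was made for ratios of other gene pairs.

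Of the partners and paralogs of these factors, 22 of 30 genes were tested, and 2 rose, 9 fell and 11 were not past the test. Their median log2 fold change was -0.10, beside 0.02 for all tested genes, of which 23.0% rose and 23.5% fell. With scaling by library totals the list read 5 higher and 6 lower. The largest changes among those called were *Runx1*, then the AP-1 subunits *Jund* (-1.01 ± 0.12) and *Junb* (-0.74 ± 0.08), and the interferon regulator *Irf7* (-0.66 ± 0.15, log2 ± SE). *Jun* fell as well (edgeR FDR = 9.7e-06), so that BATF's dimer partners of the JUN family were lower at the mRNA level together with *Batf*. The genes that rose were *Irf1* and *Tcf12*. *Cbfb*, the shared partner of RUNX proteins, had a log2 fold change of 0.14 (edgeR FDR = 0.0993).

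Of the naive and memory factors, 14 of 15 were tested, with 3 higher, 3 lower and 8 not past the test, and a median of -0.11. Among all tested genes 23.0% rose and 23.5% fell. *Tcf7*, which encodes TCF-1 of naive and memory cells, rose from 18.5 ± 2.1 to 58.6 ± 9.6 CPM (log2 fold change 1.66, edgeR FDR = 2.0e-07). *Klf2*, a regulator of lymph node exit, fell by 1.36 on the log2 scale. *Foxp1* and *Bach2*, which restrain effector differentiation, rose by 0.62 and 0.60 on the log2 scale.

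All 25 regulators upstream of the members were tested, with a median of 0.12. Of these 4 rose and 8 fell, against 23.0% and 23.5% of all tested genes. *Il21r*, the receptor of a cytokine that induces *Prdm1*, had the largest change at 1.120 ± 0.081 (log2 ± SE), followed by *Rel*, an NF-kB subunit, at 1.08 ± 0.10. *Il2rb*, the IL-2 receptor beta chain, fell by 0.88 on the log2 scale. The T-bet inducer *Stat4* and the IL-2 signal transducer *Stat5a* were not past the test (edgeR FDR = 0.0204 and 0.0667), whereas *Stat5b* fell by 0.33. With scaling by library totals the upstream list read 7 higher and 4 lower, so its balance depended on the scaling.

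Among effector targets, 17 of 21 genes were tested, with 5 higher, 9 lower and 3 not past the test, and a median of -0.31. For comparison, 23.0% of all tested genes rose and 23.5% fell. With scaling by library totals 5 were higher and 6 lower, and 6 were lower without Mock replicate 3 or Mock replicate 4. *Cxcr3*, a chemokine receptor gene driven by T-bet, fell from 11.7 ± 2.2 to 1.25 ± 0.50 CPM (log2 fold change -3.20, edgeR FDR = 1.7e-07). *Ccl5* fell by 2.08 on the log2 scale, while *Ccl3* and *Ccl4* rose by 2.32 and 2.16. The granzyme genes *Gzma* and *Gzmb* and the perforin gene *Prf1* fell, by 1.07, 0.61 and 1.46 (edgeR FDR = 0.00909, 0.00448 and 5.3e-06). *Gzma* was just under the threshold, and GC7 replicate 3 was its lowest library, at 4.27 CPM. In contrast, *Fasl*, which also serves killing, rose by 0.405 on the log2 scale (edgeR FDR = 4.8e-04). *Ifng* rose by 1.32 and *Tnf* had a log2 fold change of -0.15 (edgeR FDR = 0.211). *Cxcr3* passed the filter through the mock-treated libraries alone, so that its inclusion rested on the group in which it was high. *Klrg1*, *Cx3cr1*, *S1pr5* and *Gzmk* were below the filter.

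Of the genes that these factors repress, 7 of 11 were tested, with 2 higher, 4 lower and 1 not past the test, and a median of -0.29. The shares over all tested genes were 23.0% higher and 23.5% lower. *Tcf7* rose, with the value above. *S1pr1*, which encodes the receptor for exit from lymph nodes, fell by 2.17, and *Ccr7* fell by 0.50. The list thus did not move in one direction. With scaling by library totals 2 were higher and 1 lower, and 1 was lower without Mock replicate 3, GC7 replicate 1, GC7 replicate 2 or GC7 replicate 4. *Zbtb7b*, the CD4 lineage factor that *Runx3* silences, fell by 0.21 (edgeR FDR = 0.00789), and *Cd4* stood at 0.20 ± 0.11 and 0.25 ± 0.12 CPM (SD, n = 4).

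All 10 inhibitory receptors and related surface genes, several of which TOX sustains in exhausted cells, were tested. Of these 3 rose and 5 fell, against 23.0% and 23.5% of all tested genes, with a median of -0.34. *Btla* rose by 1.44 ± 0.10 (log2 ± SE), and *Cd38* and *Cd160* rose by 0.88 and 0.53. *Lag3*, *Ctla4* and *Havcr2* fell by 1.15, 1.05 and 1.05, and *Pdcd1*, which encodes PD-1, fell by 0.63 on the log2 scale (edgeR FDR = 3.1e-05). *Tigit* was not past the test (edgeR FDR = 0.109).

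**Figure D5:**
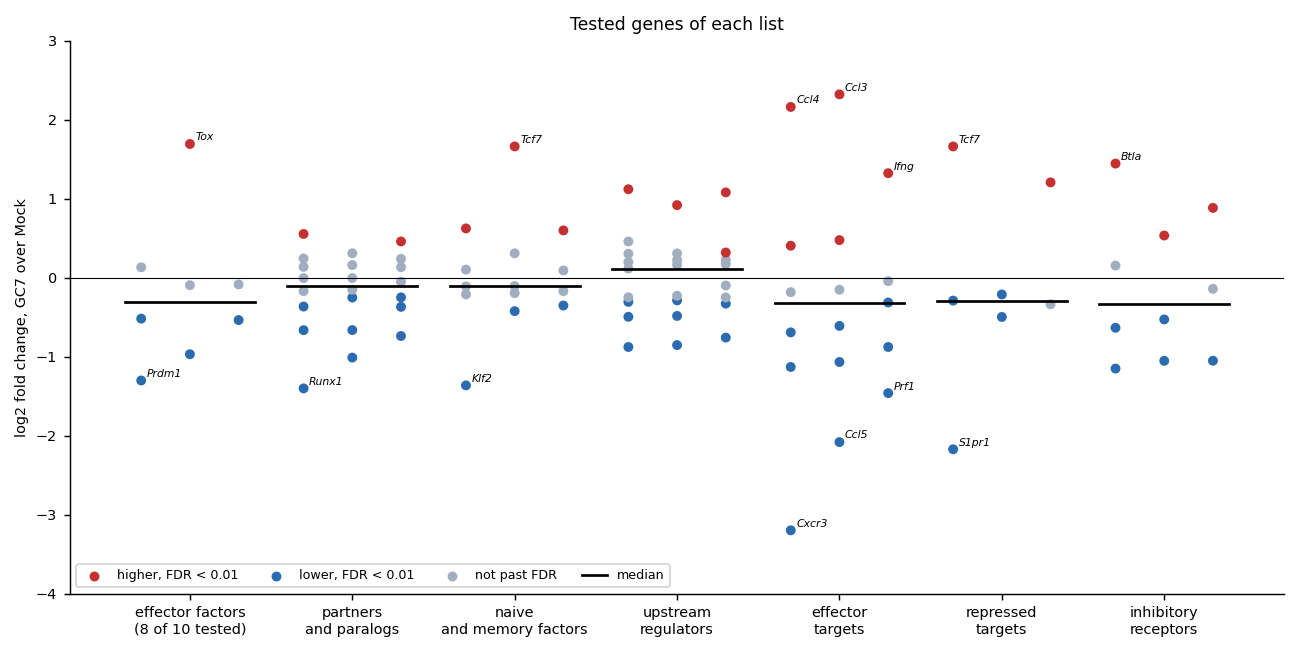
The log2 fold change, GC7-treated over mock-treated, of the tested genes of each list, with a bar at the median. Red points rose and blue points fell at an FDR below 0.01, grey points were not past the test, and the genes with the largest changes are named. Each list holds points on both sides of 0.

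The genes nearest to *Tox* in profile over the 8 libraries were *Cd200r1*, *Clec12a* and *Egr3*, at distances of 0.28, 0.32 and 0.42. Distances were Euclidean, on log2(CPM + 2) after subtraction of the mock-treated mean. Fold changes near that of the member follow from this choice. *Cd200r1* and *Clec12a* encode inhibitory receptors and *Egr3* a transcription factor induced by receptor signals. Their log2 fold changes were 1.91, 1.55 and 1.55. Nearest to *Prdm1* were *Slamf7*, *Aacs* and *Nbeal2*, at distances of 0.25, 0.26 and 0.27, with log2 fold changes of -1.30, -1.24 and -1.17. *Slamf7* encodes a surface receptor of cytotoxic lymphocytes, and its level was 110 and 44.7 CPM in mock-treated and GC7-treated cells.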

How the data were processed

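Total RNA of 4 mock-treated and 4 GC7-treated cultures was sequenced. Reads were paired-end, and the authors used Cutadapt for trimming, aligned them to GRCm38 with STAR and deposited raw counts per Ensembl gene from featureCounts. Strand and multi-mapping settings are not given in the sources used here. Groups and replicate numbers were taken from the labels, and the study describes the replicates as biological. All 55536 identifiers were found in GENCODE M21.

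Counts were tested with edgeR 4.0.16 (R 4.3.3): more than 3 CPM in at least 4 libraries, TMM factors, quasi-likelihood F test, Benjamini-Hochberg adjustment over 11189 genes. Standard errors are the log2 fold change divided by the square root of F, and 95% intervals use the degrees of freedom of the fit. With no filter, for *Zeb2* and *Eomes* in the plot of changes, these degrees of freedom had no bound and p-values were smaller. Ratios used counts plus 0.5. The filter asks for 52.6 counts in the smallest library. The alternatives were RLE factors, library totals, no filter, filterByExpr, DESeq2 1.42.0, limma-voom (limma 3.58.1), the replicate block and each library left out. Scripts were tested on simulated data. Near-identical copies were sought with BLAST 2.17.0 (at least 200 bases and 90% identity), and permutations used scipy 1.17.1.

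Members and lists were chosen with earlier results of these data known. Named genes are all members, up to 4 genes per list with the largest change among those called, both genes of each ratio, the 3 nearest genes to the 2 most changed tested members, and markers above 3 CPM. Some genes that this rule names are not reported here. Other genes of the lists named in the text were picked with their values known. The correlation of deviations between same-numbered libraries ranged from -0.22 to 0.32, so the numbers were not taken to pair the cultures.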

Additional observations from a re-analysis of the deposited data

Results flagged for a closer look

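The log2 ratio of *Prdm1* to *Bcl6* was 4.78 in Mock replicate 2 and between 5.72 and 5.91 in the other mock-treated libraries. The gap to the nearest library was 0.832 of the group's range, just above the 95% critical value of Dixon's test for 4 samples. It was the single one of 36 groups tested to pass that value, and chance passes about 1 in 20 groups.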

How the results depend on the processing

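Of 158 alternative values of the members' log2 fold changes, 150 kept their direction and their side of the FDR threshold. The rest concerned members that were not past the test, and *Irf8*. *Tbx21* was 0.012 with library totals, between -0.162 and 0.006 with each library left out, and 0.065 without both libraries that stood apart. *Eomes*, fitted without a filter, was 0.033 with library totals, between -0.148 and 0.020 with each library left out, and 0.022 without both. *Irf8* was 0.252 without both. Members higher numbered 2 with no filter, with filterByExpr and without both libraries that stood apart, and 2 were higher by more than 2-fold with no filter and with filterByExpr. Between 1 and 2 members were lower by more than 2-fold with each library left out. Among partners and paralogs, 5 genes were higher with library totals, 4 without both libraries, and 1 to 3 with each library left out (1 without Mock replicate 1, Mock replicate 3 or GC7 replicate 4). Naive and memory factors lower numbered 5 without both and 3 to 5 with each left out. Upstream regulators higher numbered 7 with library totals, 7 with no filter, 8 without both and 3 to 7 with each left out, and 4 were lower with library totals. Repressed targets lower numbered 1 with library totals and 1 to 5 with each left out. Leaving out Mock replicate 2 gave the upper ends for the naive and the upstream lists. The cause was not tested. All genes called by more than 2-fold were 355 higher and 594 lower, against 773 and 1189 with no filter, 605 and 1007 with filterByExpr, and 227 higher without both libraries.

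With the replicate block, the log2 fold changes of *Tox*, *Prdm1* and *Runx3* were 1.683, -1.296 and -0.976, and no member's call changed. The sign-flip test of the ratios in same-numbered pairs cannot go below an exact p of 0.125. With a library left out, the smallest exact permutation p of a ratio is 0.0571, so these values were given without a test. Depth limits *Zeb2* and *Eomes*, with 8 to 72 and 33 to 54 counts per library. Counts come from reads without molecular identifiers. The labels number the replicates and the study calls them biological, but neither says that they were separate animals. The p-values thus rest on the spread between these libraries.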

Other observations

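*Gm16224*, which runs opposite to *Runx3* within its introns, had 56, 22, 84 and 83 counts in mock-treated libraries and 51, 28, 23 and 33 counts in GC7-treated libraries. Its groups overlapped. *Xcr1*, a chemokine receptor gene of dendritic cells, was at 4.03 to 5.67 CPM in mock-treated and 0.39 to 0.81 CPM in GC7-treated libraries. *Zbtb46*, a dendritic cell transcription factor, moved the other way, at 0.25 to 0.59 CPM and 3.35 to 4.72 CPM. *Jchain* was at 2.59 to 3.21 CPM in mock-treated and 0.048 to 0.46 CPM in GC7-treated libraries, while *Sdc1*, another plasma cell gene, was at 4.14 to 4.74 and 11.45 to 18.32 CPM. *Cd74* was at 1.65 to 2.41 CPM in mock-treated and 11.43 to 13.27 CPM in GC7-treated libraries, and *H2-Ab1* at 132.7 to 179.2 and 37.58 to 45.24 CPM.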
